A study of Sus scrofa with 11 samples.

Results

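POSTN, LUM, VCAN, SPON1, THBS1 and CYR61 encode secreted proteins of the matrix around heart muscle cells. They were taken by name: each was the single gene symbol of exactly 1 probe set in the platform annotation, which gave 6 genes of the 12218 with a single symbol. All 6 passed the filter on dim probe sets. Tissue came from the ischemic zone of the left ventricle of male Yorkshire pigs kept for 12 weeks on either of 2 diets, normal (ND) or high fat (HFD). Every pig carried an ameroid constrictor, a device that narrows the vessel slowly, on the left circumflex artery. The ischemic muscle then received an injection of vehicle or of extracellular vesicles (EV), particles shed by cells, and was taken 5 weeks later. The arrays numbered 3 for ND and 3 for ND+EV, the vehicle and EV injections under the normal diet, and 2 for HFD and 3 for HFD+EV, the same injections under the high fat diet. The series asks whether the diet alters vessel growth after EV injection. All 4 groups share the narrowed artery and an injection, so a heart with neither is no part of the comparison, and the sources used here do not give the cell source of the EV or the age of the pigs.

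Matricellular proteins sit in the extracellular matrix and alter how cells attach, migrate and read growth factors, rather than bearing load. They are low in resting adult heart and are known to be induced by injury, mainly in fibroblasts. Proteoglycans carry long sugar chains: small leucine-rich members such as lumican set the spacing and width of collagen fibrils, and large ones such as versican bind hyaluronan and loosen the matrix. The matricellular genes here were POSTN (periostin, which binds integrins and collagen), SPON1 (F-spondin, an adhesion protein with thrombospondin repeats), THBS1 (thrombospondin 1, which activates latent TGF-beta and restrains vessel growth through CD36 and CD47) and CYR61 (also CCN1, an integrin ligand and early target of growth and stretch signals). LUM and VCAN encode lumican and versican.

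Values are the authors' normalized log2 signal per probe set, on which a difference of 1 is a doubling. Levels of the 6 genes are compared between arrays of a gene and not with one another. A change was called where limma's p, adjusted by Benjamini-Hochberg over 20668 probe sets, was below 0.05. The titles call the arrays of a group biological replicates and name no animal, so p-values measure the spread between these samples. The mean correlation with the other arrays was 0.946 for ND replicate 1 and 0.952 for ND replicate 3, against 0.965 to 0.972 for the other 9. Of 9 cardiomyocyte markers 6 were on the array, and their mean log2 signal of 10.85 to 11.39 in all arrays was high, as the label of heart muscle implies.

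In the fit with 1 mean per group, SPON1 was the only one of the 6 genes to pass the threshold in any comparison: it rose in HFD against ND. Its log2 signal was 5.53, 6.28 and 6.30 on ND replicates 1, 2 and 3, and 7.32 and 8.05 on HFD replicates 1 and 2. It was 6.54, 6.82 and 6.63 on the 3 ND+EV arrays and 6.29, 7.12 and 7.01 on the 3 HFD+EV arrays. Both HFD arrays were above all 9 others, and ND replicate 1 was below all others. By group the order was ND (6.04 ± 0.44, SD, n = 3), ND+EV (6.66 ± 0.14, n = 3), HFD+EV (6.81 ± 0.45, n = 3) and HFD (7.69 ± 0.52, n = 2), with overlapping arrays only between ND+EV and HFD+EV and, at a single array, between ND and HFD+EV.

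The rise of SPON1 in HFD over ND was 1.65 ± 0.31 (log2 fold change ± SE; limma adjusted p = 0.0474), a fold of 3.14. Singly, HFD replicate 1 was 1.28 and HFD replicate 2 was 2.02 above the ND mean. In this comparison 0.735% of all probe sets were called, 0.513% as higher. The 6 genes were chosen with earlier results of these data known, so 1 call among them cannot be weighed against that share. The call was marginal. It was lost in 16 of 21 alternative analyses, in all of which the gene stayed higher in HFD (log2 fold change 1.28 to 2.02, adjusted p 0.0213 to 0.301). Leaving out HFD replicate 2 gave an adjusted p of 0.265, HFD replicate 1 0.127, ND replicate 1 0.111, ND+EV replicate 1 0.0821, ND+EV replicate 3 0.0765, HFD+EV replicate 2 0.0735, ND+EV replicate 2 0.0685, HFD+EV replicate 3 0.0629 and ND replicate 3 0.0603.

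POSTN followed the same order of groups. Its log2 signal was 5.90, 6.90 and 7.33 on ND replicates 1, 2 and 3, 7.07, 7.53 and 7.33 in ND+EV, 7.71 and 8.62 in HFD, and 6.90, 7.36 and 7.76 in HFD+EV. HFD replicate 2 was the highest array, HFD replicate 1 lay below HFD+EV replicate 3, and ND replicate 1 was the lowest by far. The HFD to ND difference was 1.46 ± 0.40 (limma adjusted p = 0.079, not passed), and the groups did not overlap. The group means ran ND (6.71 ± 0.73, SD, n = 3), ND+EV (7.31 ± 0.23, n = 3), HFD+EV (7.34 ± 0.43, n = 3) and HFD (8.17 ± 0.64, n = 2), and each overlapped with its neighbour.

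LUM had its lowest value on ND replicate 1 as well. Its log2 signal was 7.56, 8.73 and 9.17 in ND, 9.20, 9.28 and 9.24 in ND+EV, 9.13 and 9.93 in HFD, and 8.87, 9.32 and 9.87 in HFD+EV. The 3 ND+EV arrays were within an SD of 0.04, whereas ND had an SD of 0.84. HFD replicate 1 lay below ND replicate 3, so HFD and ND overlapped, with a difference of 1.04 ± 0.43 (limma adjusted p = 0.176). Without ND replicate 1 it was 0.57, and without HFD replicate 2 it was 0.64. The order was ND (8.49 ± 0.84, SD, n = 3), ND+EV (9.24 ± 0.04, n = 3), HFD+EV (9.35 ± 0.50, n = 3) and HFD (9.53 ± 0.56, n = 2), where only ND and ND+EV, narrowly, had no overlap.

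VCAN stood out on single arrays. Its log2 signal was 6.02, 5.97 and 6.16 in ND, 5.74, 5.86 and 5.82 in ND+EV, 6.64 and 7.81 in HFD, and 5.73, 5.95 and 6.72 in HFD+EV. HFD replicate 2 exceeded every other array by more than 1 log2 unit, while HFD replicate 1 was just below HFD+EV replicate 3. The HFD to ND difference of 1.18 ± 0.33 (limma adjusted p = 0.0796) was 1.77 from HFD replicate 2 alone and 0.60 from HFD replicate 1 alone. The order was ND+EV (5.81 ± 0.06, SD, n = 3), ND (6.05 ± 0.10, n = 3), HFD+EV (6.13 ± 0.52, n = 3) and HFD (7.23 ± 0.83, n = 2), and the only neighbours without overlap were ND+EV and ND. ND replicate 1, the lowest array for 3 other genes, was not low for VCAN.

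THBS1 varied within each group. Its log2 signal was 7.29, 6.98 and 7.76 in ND, 8.14, 8.33 and 7.29 in ND+EV, 7.996 and 8.45 in HFD, and 7.04, 8.29 and 8.37 in HFD+EV. ND+EV replicate 3 and HFD+EV replicate 1 fell among the ND arrays. Both HFD arrays were above the 3 ND arrays, and the difference was 0.88 ± 0.42 (limma adjusted p = 0.234). The order was ND (7.34 ± 0.39, SD, n = 3), HFD+EV (7.90 ± 0.75, n = 3), ND+EV (7.92 ± 0.55, n = 3) and HFD (8.22 ± 0.32, n = 2), and neighbours overlapped.

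CYR61 had its highest mean in ND, where POSTN, LUM, SPON1 and THBS1 had their lowest. Its log2 signal was 5.46, 5.37 and 5.52 in ND, 5.005, 5.19 and 5.02 in ND+EV, 4.73 and 4.98 in HFD, and 4.93, 5.19 and 5.40 in HFD+EV. All ND arrays lay above all ND+EV and HFD arrays, and only HFD+EV replicate 3 reached the ND range. The order was HFD (4.85 ± 0.17, SD, n = 2), ND+EV (5.07 ± 0.10, n = 3), HFD+EV (5.17 ± 0.23, n = 3) and ND (5.45 ± 0.07, n = 3), and HFD did not overlap with ND+EV. The whole range over the 11 arrays was 0.79 log2 units, against 1.47 for THBS1 and 2.71 for POSTN. The HFD to ND difference was -0.60 ± 0.15 (limma adjusted p = 0.075), which passed without HFD+EV replicate 1 (adjusted p = 0.0468).

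**Figure D1:**
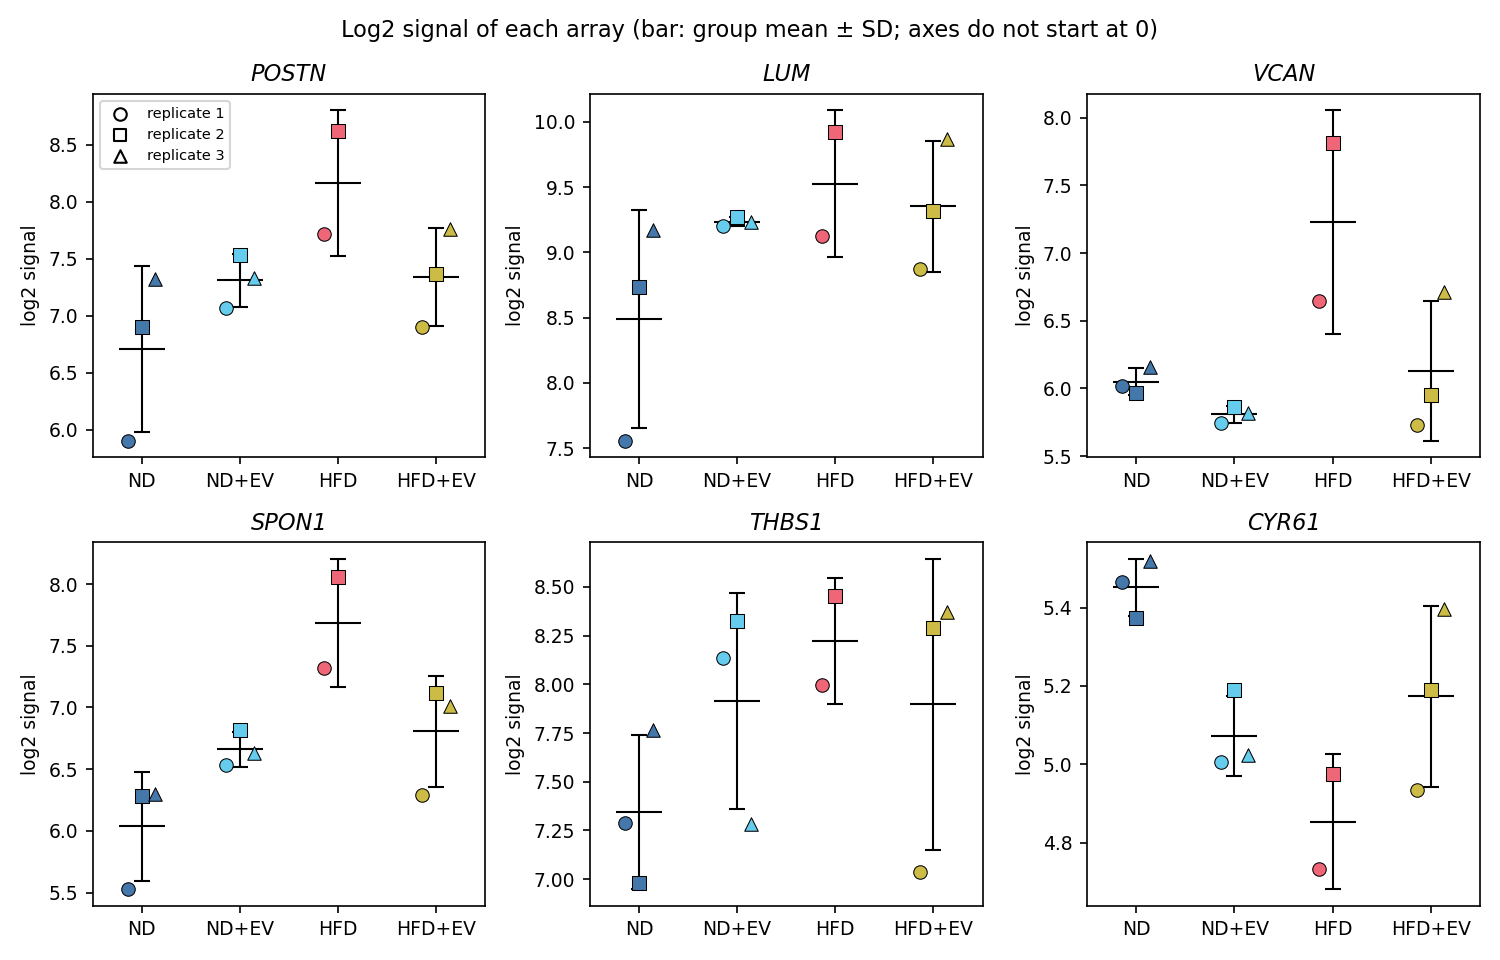
Log2 signal (vertical axes, which do not start at 0) of the 6 genes on each array, with groups along the horizontal axes, 1 symbol per replicate number, and bars for the group mean ± SD (n = 3, HFD n = 2). HFD replicate 2 is the highest array for 5 genes, and CYR61 is highest in ND.

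Taken by comparison, the diet in vehicle-injected hearts gave the widest differences. In HFD against ND 5 of the 6 genes were higher and CYR61 was lower, with a median log2 fold change of 1.11 against -0.02 over all probe sets tested. The groups did not overlap for 4 higher genes (POSTN, VCAN, SPON1 and THBS1) and for CYR61 on the lower side, while 19.4% and 19.7% of all probe sets, 39.1% in all, did the same. An unadjusted p under 0.05 was reached by 5 of 6 genes and by 24% of all probe sets. Across all probe sets the fold change rose with mean signal (r = 0.337), and the 6 genes ranked at percentiles 66.9 to 98.5 of mean signal. Cyclic loess, which took that correlation to -0.0305, gave 1.41 for SPON1 (limma adjusted p = 0.062), 1.14 for POSTN (0.132), 1.01 for VCAN (0.121), 0.60 for LUM (0.381), 0.52 for THBS1 (0.498) and -0.59 for CYR61 (0.0882). Quantile normalization gave 0.56 for THBS1.

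The diet made little difference to these genes in EV-injected hearts. In HFD+EV against ND+EV the log2 differences were 0.03 for POSTN, 0.12 for LUM, 0.32 for VCAN, 0.15 for SPON1, -0.02 for THBS1 and 0.10 for CYR61. Every gene's arrays overlapped between the groups, while 7.58% of all probe sets were higher and 6.93% lower without overlap, 14.5% in all. With limma 0 of 6 passed, 0 had an unadjusted p under 0.05 (7.36% of all probe sets), and the called share of all probe sets was 0%. The 95% intervals still allowed sizeable differences, from -0.47 to 0.76 for SPON1, from -0.77 to 0.83 for POSTN, from -0.73 to 0.96 for LUM, from -0.33 to 0.98 for VCAN, from -0.86 to 0.82 for THBS1 and from -0.21 to 0.41 for CYR61.

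EV under the normal diet went with higher values of 4 genes. In ND+EV against ND the log2 differences were 0.75 ± 0.38 for LUM, 0.62 ± 0.28 for SPON1, 0.60 ± 0.36 for POSTN and 0.57 ± 0.38 for THBS1 (SE). VCAN was at -0.24 ± 0.29 and CYR61 at -0.38 ± 0.14. The groups did not overlap for LUM and SPON1 on the higher side or for VCAN and CYR61 on the lower side, as at 6.32% and 5.31% of all probe sets, 11.6% in all. With limma 0 of 6 genes passed (adjusted p 0.548 to 0.837; 0% of all probe sets called), and SPON1 and CYR61 had an unadjusted p under 0.05, as did 8.51% of all probe sets. Without ND replicate 3 POSTN was 0.91. Without ND replicate 1 the differences were 0.28 for LUM, 0.37 for SPON1 and 0.20 for POSTN, and without ND+EV replicate 3 or ND+EV replicate 2 THBS1 was 0.89 or 0.37.

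EV under the high fat diet went with lower values of 5 genes. In HFD+EV against HFD the log2 differences were -1.10 ± 0.33 for VCAN, -0.88 ± 0.31 for SPON1, -0.82 ± 0.40 for POSTN, -0.33 ± 0.42 for THBS1 and -0.17 ± 0.43 for LUM, and 0.32 ± 0.15 for CYR61 (SE). Only SPON1 had groups that did not overlap, on the lower side, as did 11% of all probe sets (23.2% in either direction). With limma 0 of 6 passed (adjusted p 0.716 to 0.991; 0% of all probe sets called), and VCAN and SPON1 had an unadjusted p under 0.05, as did 5.54% of all probe sets. HFD replicate 2 set much of the size: without it VCAN was -0.51, SPON1 -0.51, POSTN -0.37 and LUM 0.22, and without HFD replicate 1 they were -1.68, -1.25, -1.28 and -0.57. THBS1 turned to 0.11 and LUM to 0.07 without HFD+EV replicate 1, while without HFD+EV replicate 3 they were -0.56 and -0.43. Leaving out HFD replicate 1 gave -0.55 for THBS1, HFD replicate 2 gave -0.0975 and HFD+EV replicate 2 gave -0.52. For CYR61 the value was 0.20 with HFD replicate 1 left out and 0.21 with HFD+EV replicate 3 left out.

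The EV effect therefore had opposite signs under the 2 diets for POSTN, LUM, SPON1, THBS1 and CYR61, and the difference of the effects was tested directly. It was -1.50 ± 0.42 for SPON1, -1.43 ± 0.54 for POSTN, -0.92 ± 0.58 for LUM, -0.90 ± 0.57 for THBS1, -0.86 ± 0.44 for VCAN and 0.70 ± 0.21 for CYR61 (log2 units ± SE). With limma 0 of 6 passed (adjusted p 0.572 to 0.663; 0% of all probe sets called). SPON1, POSTN and CYR61 had an unadjusted p under 0.05, as did 8.42% of all probe sets. Single arrays set much of the smaller differences. VCAN was -0.27 without HFD replicate 2 and -1.44 without HFD replicate 1, LUM -0.46 without ND replicate 1 and -0.53 without HFD replicate 2, and THBS1 -0.47 without HFD+EV replicate 1. The comparisons share arrays, since ND enters 2 of them and HFD 2, so their values are not separate evidence. Averaged over both injections, the diet difference was 0.90 ± 0.21 for SPON1 (limma adjusted p = 0.0582), 0.75 ± 0.22 for VCAN (0.0867), 0.74 ± 0.27 for POSTN (0.134), 0.58 ± 0.29 for LUM (0.239), 0.43 ± 0.28 for THBS1 (0.357) and -0.25 ± 0.10 for CYR61 (0.175). An unadjusted p under 0.05 was reached by 4 of 6 genes and 24.7% of all probe sets, and with limma 0 of 6 genes and 1.17% of all probe sets were called, 0.861% as higher. Without HFD replicate 2 that mean was 0.46 for VCAN and 0.38 for LUM, without ND replicate 1 0.35 for LUM, and without ND+EV replicate 3 0.27 for THBS1. The mean EV effect for VCAN was -0.67 ± 0.22 (limma adjusted p = 0.855) and -0.38 without HFD replicate 2, with 1 of 6 genes and 5.42% of all probe sets at an unadjusted p under 0.05 and 0% called.

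**Figure D2:**
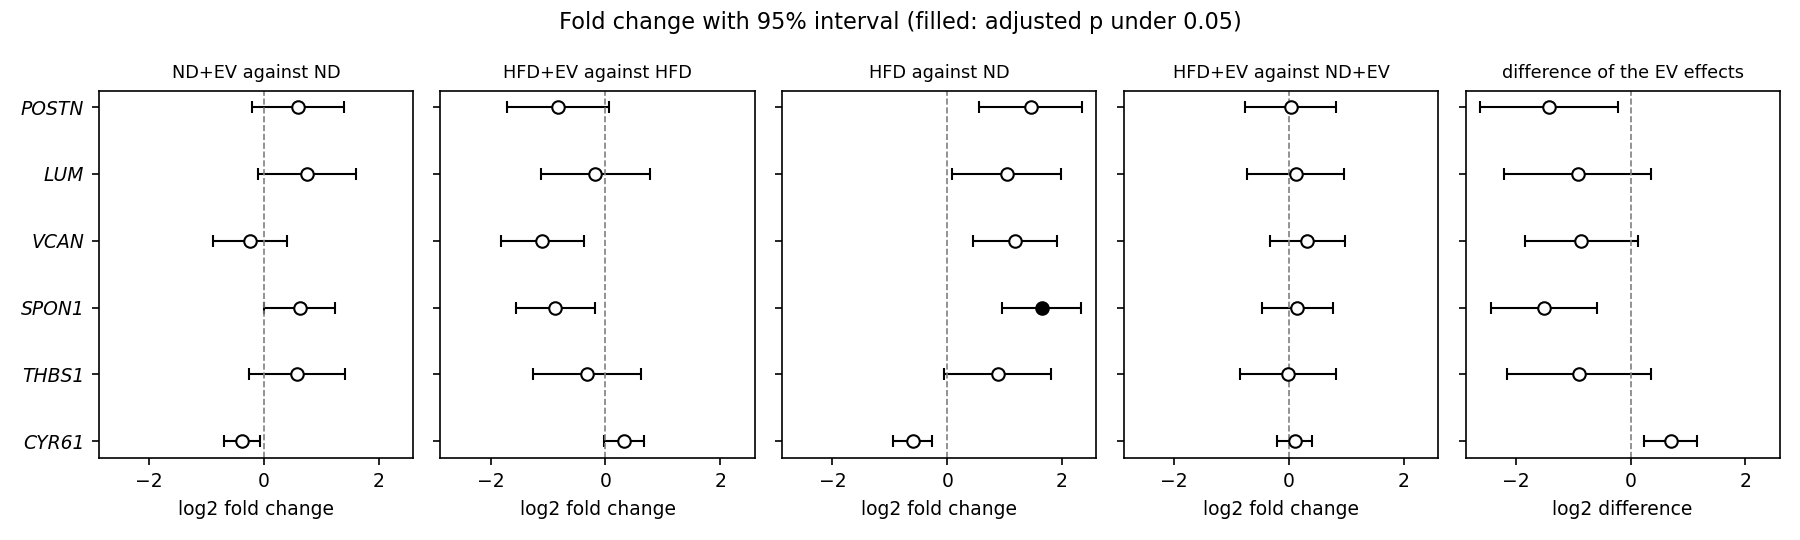
Log2 fold change (horizontal axes) of the 6 genes in 4 comparisons and the difference of the EV effects, with 95% intervals from limma; a filled point has an adjusted p under 0.05. SPON1 in HFD against ND is the single filled point, and all intervals for HFD+EV against ND+EV include 0.

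Of the 15 pairs among the 6 genes, 8 were correlated over the arrays by Pearson's r and 6 by Spearman's rho. The share of pairs of other genes that would pass was not computed, so these counts cannot be called particular to the 6 genes. POSTN and SPON1 had the highest correlation over the 11 arrays (Pearson r = 0.95, permutation p = 0.00016, adjusted over 15 pairs 0.0012; Spearman rho = 0.945, permutation p = 9e-05, adjusted 0.00135). POSTN and LUM followed (r = 0.921, permutation p = 8e-05, adjusted 0.0012; rho = 0.845, permutation p = 0.00197, adjusted 0.01). The 8 were all pairs among POSTN, LUM, SPON1 and THBS1, and VCAN with POSTN and with SPON1. For each pair the 2 arrays farthest from the median of its first gene were then left out, which were ND replicate 1 and HFD replicate 2 for 7 of the 8 and HFD replicate 2 and HFD+EV replicate 3 for VCAN and SPON1. Of the 8 pairs 1 still passed over the 9 arrays left, LUM and THBS1 (r = 0.762, adjusted permutation p = 0.0498). The coefficient was lower for POSTN and SPON1 (0.82, 0.0504), POSTN and LUM (0.771, 0.0504), LUM and SPON1 (0.574, 0.212) and VCAN and SPON1 (0.367, 0.506). It was about as large as before for POSTN and VCAN (0.767, 0.0628), POSTN and THBS1 (0.724, 0.0959) and SPON1 and THBS1 (0.699, 0.108). With HFD replicate 2 alone left out, r was 0.458 for POSTN and VCAN and 0.456 for VCAN and SPON1. It was 0.616 to 0.934 for the rest of the 8. Neither VCAN pair among the 8 passed by Spearman's rho (0.555, adjusted permutation p = 0.173, and 0.455, 0.246).

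As deviations of each array from its group mean, all 15 pairs had a positive r. POSTN and LUM had r = 0.973 within groups (exact permutation within groups, p = 0.00231, adjusted 0.0347), the only one of 15 pairs to pass. That p is the smallest that 432 permutations allow, so failing to pass does not show that a correlation was absent. For the other pairs that passed over all arrays, r within groups ran from 0.498 (LUM and THBS1) to 0.91 (POSTN and SPON1). CYR61 changed its relation with the scale of comparison. Over all 11 arrays its r was negative with each of the other 5 genes, from -0.136 with THBS1 to -0.531 with SPON1, and 0 of these 5 passed by either coefficient. With VCAN the sign turned with the coefficient (r = -0.175, rho = 0.232). Within groups its r was 0.851 with VCAN, 0.821 with THBS1, 0.659 with SPON1, 0.637 with POSTN and 0.57 with LUM (adjusted permutation p 0.0694 for the first 2 and up to 0.165). Only THBS1 had group means in the exact reverse of the order of CYR61. That order rested on a log2 difference of -0.02 for THBS1 in HFD+EV against ND+EV, which turned to 0.22 with array weights. POSTN, LUM, SPON1 and VCAN shared with CYR61 a lower mean in ND+EV than in HFD+EV, and VCAN also a lower mean in ND+EV than in ND.

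**Figure D3:**
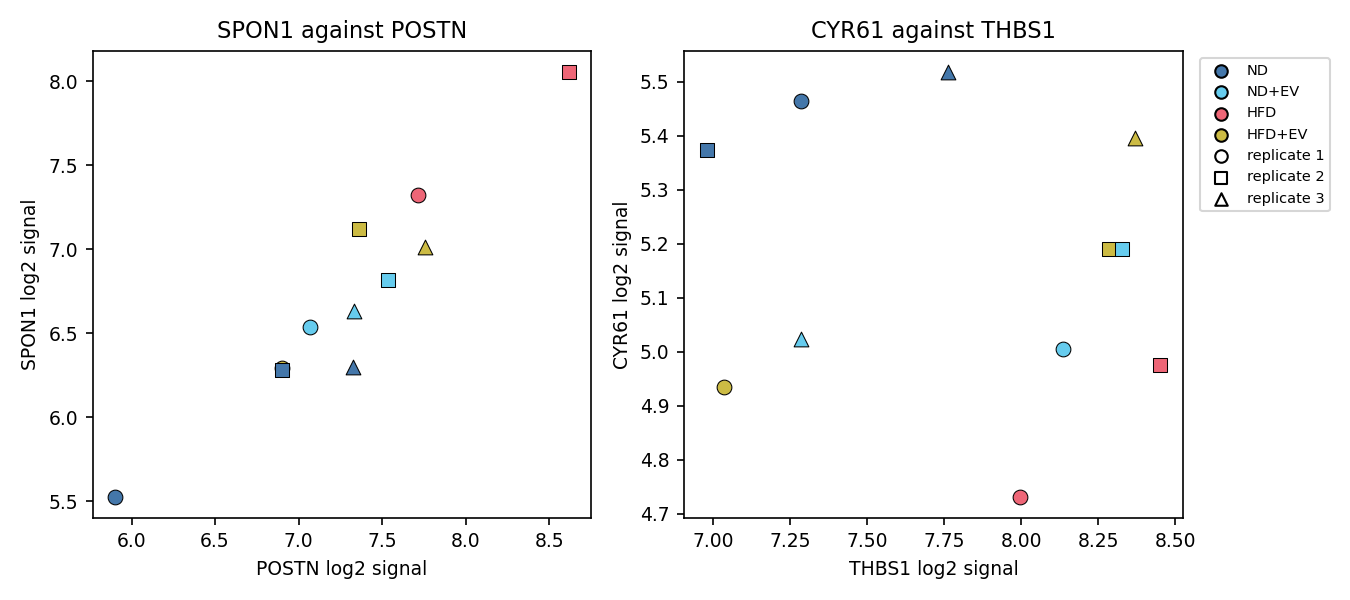
Log2 signal of SPON1 against POSTN (left) and of CYR61 against THBS1 (right), 1 point per array, coloured by group with 1 symbol per replicate number; in the left panel ND replicate 2 and HFD+EV replicate 1 nearly coincide. SPON1 and POSTN run in parallel from ND replicate 1 to HFD replicate 2, while CYR61 and THBS1 show no common order over all arrays (r = -0.136).

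Lists of related genes gave the setting, with 101 genes tested in 8 lists and 0 of them past the threshold with limma in any of the 4 comparisons between groups. In HFD against ND 70 of the 101 were higher and 22 had an unadjusted p under 0.05, while 47.5% of all probe sets were higher and 24% had such a p. In ND+EV against ND, HFD+EV against HFD and HFD+EV against ND+EV such p-values numbered 3, 4 and 7 of the 101, beside 8.51%, 5.54% and 7.36% of all probe sets. The shares of all probe sets were not matched to the lists for mean signal. In HFD against ND the fold change rose with mean signal (r = 0.337), and the list counts and medians were not repeated with cyclic loess.

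Among other matricellular proteins 10 of 14 were higher in HFD than in ND (median 0.12, against -0.02 over all probe sets). SPARC, a collagen-binding matricellular protein, had the smallest p: its log2 signal was 9.27, 9.54 and 9.86 in ND and 9.87 and 10.63 in HFD (0.69 ± 0.23, limma adjusted p = 0.11). CTGF, the close relative of CYR61, had nearly the same mean under both diets, 7.06 in ND and 7.07 in HFD. In ND+EV, CTGF was 0.48 ± 0.27 below ND on the log2 scale (log2 fold change -0.48, limma adjusted p = 0.632), on the same side as CYR61. THBS3 was -0.29 ± 0.14 in HFD+EV against HFD (0.904), and WISP1, another relative of CYR61, -0.37 ± 0.16 in HFD+EV against ND+EV (0.657).

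Other proteoglycans were higher for 14 of 19 genes in HFD than in ND (median 0.21). Asporin (ASPN), a small leucine-rich relative of lumican, had a log2 signal of 5.68, 6.02 and 6.17 in ND and 6.44 and 7.58 in HFD (1.05 ± 0.36, limma adjusted p = 0.115). It was at 5.63, 6.37 and 6.73 in HFD+EV, between these groups and overlapping both (-0.77 ± 0.36 against HFD, adjusted p = 0.902). As with VCAN, HFD replicate 2 was far above HFD replicate 1. ACAN, which encodes the cartilage proteoglycan aggrecan, was -0.34 ± 0.14 in ND+EV against ND (adjusted p = 0.57), and PRELP 0.61 ± 0.37 in HFD+EV against ND+EV (0.742).

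Receptors that bind these proteins were higher in HFD than in ND for 8 of 10 genes (median 0.21). CD47, a thrombospondin receptor, was nearest to the threshold: its log2 signal was 5.85, 6.53 and 5.80 in ND and 6.74 and 7.14 in HFD (0.88 ± 0.24, limma adjusted p = 0.0778). It was also above all ND+EV arrays in all 3 HFD+EV arrays (0.61 ± 0.21, adjusted p = 0.606), unlike THBS1. CD36, the other thrombospondin receptor, was 0.83 ± 0.38 in ND+EV against ND (adjusted p = 0.59). The hyaluronan receptor CD44 was -0.49 ± 0.20 in HFD+EV against HFD (0.895).

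TGF-beta genes were mixed, with 7 of 13 higher in HFD than in ND (median 0.10). TGFB1, the ligand that thrombospondin 1 releases from its latent form, was at 4.12, 4.24 and 4.60 in ND and 4.90 and 4.94 in HFD (0.60 ± 0.17, limma adjusted p = 0.0787), with no overlap. Its receptor TGFBR1 was 0.42 ± 0.13 higher in HFD+EV than in HFD (adjusted p = 0.746), and the inhibitor SMAD7 was -0.34 ± 0.19 in ND+EV against ND (0.632). In HFD+EV against ND+EV, TGFB1 was at 0.25 ± 0.15 (0.739).

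Matrix proteases and their inhibitors were higher in HFD for 10 of 14 genes (median 0.13) and lower in HFD+EV than in HFD for 10 of 14 (median -0.26). ADAMTS4, which cuts versican and aggrecan, was -0.51 ± 0.20 in ND+EV against ND (adjusted p = 0.57), and the gelatinase MMP2 -0.78 ± 0.43 in HFD+EV against HFD (0.915). PLAT, the tissue plasminogen activator, was 0.81 ± 0.33 in HFD against ND (adjusted p = 0.169), and MMP19 was 0.34 ± 0.15 in HFD+EV against ND+EV (0.667).

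Collagen genes showed the largest list median of the 8, with 11 of 13 higher in HFD than in ND (0.42). SERPINH1, the collagen chaperone, was 0.65 ± 0.21 in that comparison (limma adjusted p = 0.102) and -0.56 ± 0.21 in HFD+EV against HFD (0.863). PLOD1, a lysyl hydroxylase of collagen, was -0.13 ± 0.17 in ND+EV against ND (0.852), and P4HA1, a prolyl hydroxylase of collagen, 0.30 ± 0.12 in HFD+EV against ND+EV (0.646).

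YAP and SRF genes, which include regulators of CYR61, were near the median of all probe sets (9 of 14 higher in HFD, median 0.04), and the stress-induced factor ATF3 was 1.09 ± 0.43 in HFD+EV against ND+EV (adjusted p = 0.636) with 7.91 on HFD+EV replicate 3 and at most 6.76 on any other array. SRF, the serum response factor, was 0.41 ± 0.24 in HFD against ND (0.311) and -0.31 ± 0.24 in HFD+EV against HFD (0.929), and JUN was 0.35 ± 0.23 in ND+EV against ND (0.672). Of 4 hyaluronan genes 1 was higher in HFD than in ND (median -0.11), and ITIH1, a hyaluronan-binding chain, was -0.46 ± 0.17 (0.133) there and -0.18 ± 0.15 in HFD+EV against ND+EV (0.798). HYAL2, a hyaluronidase, was 0.19 ± 0.16 in ND+EV against ND (0.744) and 0.35 ± 0.17 in HFD+EV against HFD (0.904).

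Of 14 lists of cell markers, 4 had their lowest mean on ND replicate 1 and their highest on HFD replicate 2: fibroblast, myofibroblast, smooth muscle and atrial muscle. Of 9 fibroblast markers 8 were measured, and their mean log2 signal was 7.42, 7.99 and 8.25 in ND, 7.92 to 8.08 in ND+EV, 8.18 and 8.67 in HFD and 7.88, 8.27 and 8.52 in HFD+EV. ND replicate 1 was lowest and HFD replicate 2 highest, as for POSTN, LUM and SPON1. The same held for the means of the matricellular, proteoglycan, receptor, TGF-beta, protease and collagen lists. Over all probe sets, the SD of log2 signal was also smallest on ND replicate 1 (1.45) and largest on HFD replicate 2 (1.62). The pattern was thus also seen outside the list of fibroblast markers, but some of these lists share genes. ACTA2 and TAGLN stand in both the myofibroblast and smooth muscle lists. CTHRC1 and COMP stand in both the myofibroblast and matricellular lists. All 8 fibroblast markers were higher in HFD than in ND (median 0.51), and 0 passed limma's threshold. Of the myofibroblast markers 3 were higher and 4 lower in that comparison (median -0.07). Of the smooth muscle and pericyte markers 5 were higher and 2 lower (median 0.28). In the fibroblast list 4 genes also stand in the collagen or proteoglycan lists. Smooth muscle and pericyte markers (7 of 9 measured) ranged from 6.26 to 6.92 in ND, 6.32 to 6.49 in ND+EV, 6.78 to 7.15 in HFD and 6.46 to 6.91 in HFD+EV. Myofibroblast markers (7 of 7) ranged from 5.24 to 5.93 in ND, 5.41 to 5.59 in ND+EV, 5.48 to 5.97 in HFD and 5.62 to 5.87 in HFD+EV. Macrophage markers (8 of 11) ranged from 5.12 to 5.74 in ND, 5.53 to 5.75 in ND+EV, 5.52 to 5.63 in HFD and 5.52 to 5.82 in HFD+EV, highest on HFD+EV replicate 3. Endothelial markers (6 of 8) ranged from 6.50 to 6.84 in ND, 6.398 to 6.59 in ND+EV, 6.68 to 6.89 in HFD and 6.54 to 6.94 in HFD+EV. T and B cell markers (6 of 8) were highest on ND replicate 1 and lowest on HFD replicate 1, at 4.62 and 4.24, and epicardial markers (5 of 8) were lowest on HFD replicate 1 at 4.65.

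Atrial muscle markers (6 of 6 measured) had a mean log2 signal of 5.69 and 6.42 on HFD replicates 1 and 2 and of 4.97 to 5.58 on the other 9 arrays. SLN had a mean of 5.25 in HFD against 3.47, 3.66 and 3.81 in ND, ND+EV and HFD+EV, and NPPA, the atrial natriuretic peptide, 8.21 against 6.58, 5.80 and 6.83. MYL7 had its highest mean in ND+EV (9.47, against 8.81 in HFD), and BMP10 was at 3.74 in HFD and 3.78 to 3.93 in the other groups. The part of these cell markers in the values of the 6 genes was not tested. In bulk tissue more cells of a type and more RNA per cell cannot be told apart.

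**Figure D4:**
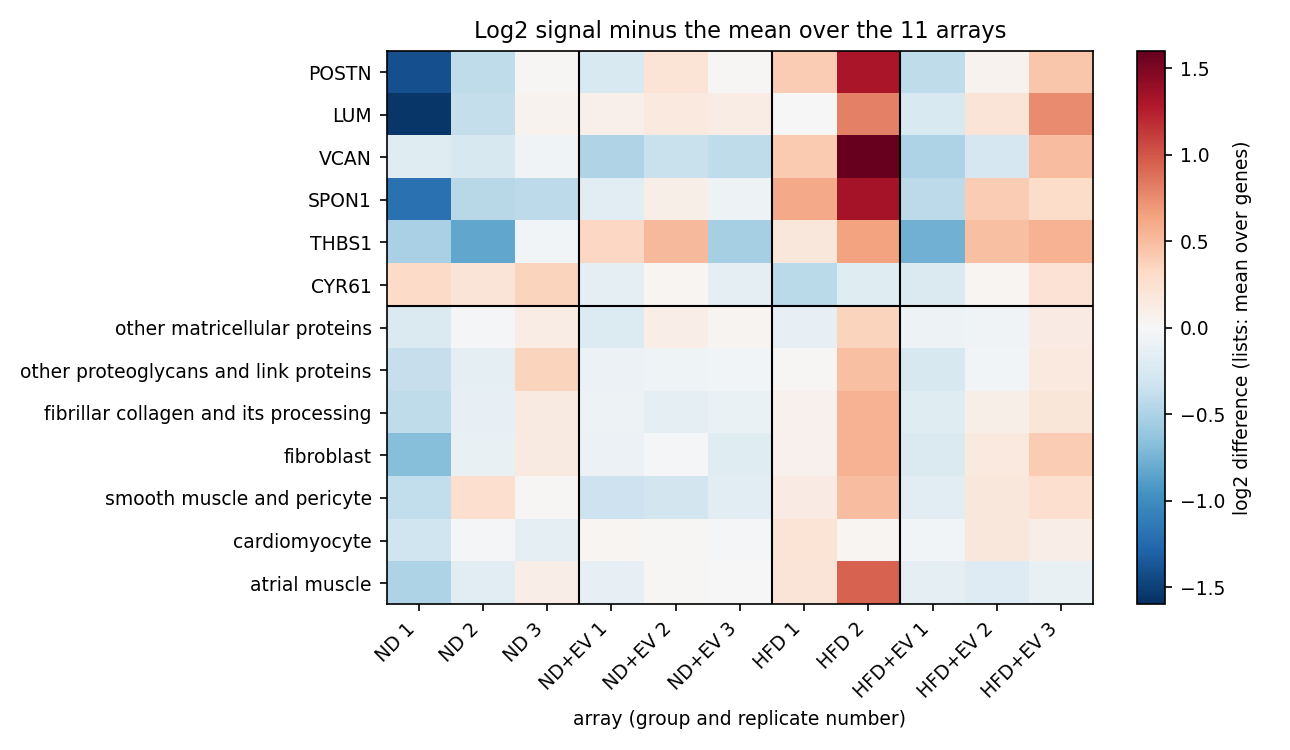
Log2 signal minus the mean over the 11 arrays (colour scale) for the 6 genes above the line and for the mean over each of 7 gene lists below it, with arrays in columns by group and replicate number. ND replicate 1 is low and HFD replicate 2 high for POSTN, LUM, SPON1 and the fibroblast list, and VCAN is not low on ND replicate 1.

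Genes most like each of the 6 over the 11 arrays were taken by Pearson's r among 9733 other genes. For POSTN they were VKORC1, which recycles vitamin K (r = 0.974), MAGED1 (0.967) and CCNY (0.965). For LUM they were MYD88, an adaptor of Toll-like receptors (0.975), PLXDC2 (0.97) and GRN, the gene of progranulin (0.963). SPON1 was nearest to TFG (0.968), PCYOX1 (0.967) and RAB7A, a GTPase of late endosomes (0.967). VCAN was nearest to LIMCH1 (0.956), FRZB, a secreted Wnt antagonist (0.938), and PDIA4, a protein disulfide isomerase (0.936).

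For THBS1 and CYR61 the nearest genes were less close. THBS1 had r = 0.89 with MRPL20, a protein of the mitochondrial ribosome, 0.885 with RPS27L and 0.879 with ABHD4. CYR61 had r = 0.875 with THG1L, 0.867 with the uncharacterised LOC100518292 and 0.865 with IQGAP3. As deviations from group means the r of CYR61 with these 3 was 0.782, 0.385 and 0.476. For the nearest genes of POSTN, LUM, VCAN, SPON1 and THBS1 it was between 0.863 and 0.99. With HFD replicate 2 left out, r was 0.776 to 0.84 for the nearest genes of VCAN. It was then 0.856 to 0.869 for those of CYR61, 0.865 to 0.884 for THBS1 and 0.942 to 0.975 for POSTN, LUM and SPON1. All 11 arrays share their preparation and normalization, and these correlations describe them without a test.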

How the data were processed

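Per the labels' protocols, total RNA of 11 samples was run on Affymetrix arrays that probe whole transcripts. Transcriptome Analysis Console is named in the submitters' processing notes. The authors deposited normalized log2 signal for 27558 probe sets; no source used here gives the normalization method, annotation version or genome build, and coordinates are left out. Of the probe sets tested, 44.7% had the same value on 2 or more arrays, among the 6 genes only CYR61 (ND+EV replicate 2 and HFD+EV replicate 2). Gene names are those of the platform annotation and may be outdated.

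Probe sets whose mean over the arrays was under 3.63, the dimmest 25%, were not tested. Group means were estimated jointly from the 11 arrays by limma 3.58.1 under R 4.3.3 (7 residual and 3.62 prior degrees of freedom), and 7 contrasts were tested two-sided at a Benjamini-Hochberg adjusted p of 0.05. The functions were tested on simulated data. Correlations used 100000 permutations, or all 432 within groups. The number of arrays limits the precision.

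Where a gene had several probe sets, the brightest on average gave its value. The rule for named genes took all 6 members, the list gene with the smallest p in each comparison between groups and any past the threshold, and the 3 genes with the highest r with each member; CTGF in HFD against ND was added after its values were seen. The members and lists were chosen with earlier results of these data known. Promoter motifs were not analysed here. Alternatives were other filters and normalizations, an intensity trend, array weights, the compared groups alone, a replicate block, identical probe sets taken once, and leaving out arrays.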

Additional observations from a re-analysis of the deposited data

Results flagged for a closer look

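For 3 genes every EV array lay on one side of its vehicle mean under the normal diet and on the opposite side under the high fat diet. The share of all probe sets with this pattern was not computed, so the count is not a result about these genes. For SPON1 the 3 ND+EV arrays were above the ND mean and the 3 HFD+EV arrays below the HFD mean, and the EV effects differed by -1.50 (log2 units; unadjusted p = 0.00445 and adjusted p = 0.572 with limma). For POSTN the pattern was the same, with a difference of -1.43 (unadjusted p = 0.024, adjusted p = 0.572 with limma). For CYR61 the ND+EV arrays were below and the HFD+EV arrays above, with a difference of 0.70 (unadjusted p = 0.00659, adjusted p = 0.572 with limma). None of the 3 differences passed the threshold.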

How the results depend on the processing

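Of 864 values of single genes under the alternatives, 816 kept their direction and side of the threshold and 22 reversed. Another 16 lost the call, all of them SPON1 in HFD against ND, and 10 gained one. SPON1 in HFD against ND was the only call among the 42 results, and it was lost in 16 of 21 alternatives. For the rest, keeping the side meant staying uncalled, so 816 does not measure how firm the results are. The number of the 6 genes past the threshold in HFD against ND (1) was 0 with no filter, quantile normalization, cyclic loess, the intensity trend, array weights, the groups compared alone or without both ND replicates 1 and 3, and 0 to 2 without any 1 array. All probe sets called in that comparison (152) numbered 0 in each of these 7 settings and 0 to 1353 without any 1 array. For the mean diet effect, where 0 of 6 genes and 242 probe sets passed, the genes numbered 1 without the dimmest 50% (SPON1, 463 probe sets), 1 with array weights (1665 probe sets) and 0 to 1 without any 1 array (0 to 1394 probe sets). Its probe sets numbered 0 with no filter, quantile normalization, cyclic loess, the intensity trend or without both ND replicates 1 and 3.

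The titles give the groups the same replicate numbers. Same-numbered ND and ND+EV arrays deviated together at r = 0.0782, 0.199 and 0.103, not all over 0.1, and different-numbered ones at -0.182 to 0.0521. Same-numbered ND+EV and HFD+EV arrays were at 0.0742, 0.13 and -0.00885, and different-numbered ones at -0.177 to 0.11. Same-numbered HFD and HFD+EV arrays were at 0.0245 and -0.103. The 2 HFD arrays deviate in exactly opposite ways, so those values cannot decide. The numbers were not taken to pair the samples, but pairing is not excluded. With the replicate block 4 of the 6 genes (POSTN, LUM, VCAN and SPON1) and 938 probe sets passed in HFD against ND, and 2 (POSTN and SPON1) and 985 in the mean diet effect.

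Without any 1 array the probe sets called ranged from 0 to 2 in ND+EV against ND and HFD+EV against ND+EV, and from 0 to 1 in HFD+EV against HFD, the mean EV effect and the difference between EV effects; in HFD+EV against ND+EV they numbered 10 with array weights and 2 without both ND replicates 1 and 3. In HFD+EV against ND+EV, POSTN turned to -0.10 with quantile normalization and -0.0752 with cyclic loess, and THBS1 to 0.22 with array weights; without any 1 array POSTN ranged from -0.18 to 0.25, LUM from -0.14 to 0.36, SPON1 from -0.0074 to 0.41, THBS1 from -0.33 to 0.41 and CYR61 from -0.0103 to 0.22. In HFD+EV against HFD, LUM ranged from -0.57 to 0.22 and THBS1 from -0.56 to 0.11. In the mean EV effect POSTN ranged from -0.34 to 0.12, SPON1 from -0.31 to 0.0568 and CYR61 from -0.0904 to 0.0311, with CYR61 at 0.0063 with array weights and 0.0095 without both ND replicates 1 and 3. Of the 15 correlations 8 passed, 1 without the 2 arrays farthest from the median and 1 as deviations from group means. The cause of these changes was not tested. Each of the 6 genes had a single probe set, so an analysis by other probe sets could not be run.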
